A study of Caenorhabditis elegans with 2 samples.

Results

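The regions described here are the chromatin immunoprecipitation peaks of ALY-2 that lie at the starts of protein-coding genes in the nematode Caenorhabditis elegans. A peak of the list called on both replicates combined was counted when its summit lay between 1000 bp upstream and 200 bp downstream of an annotated transcript start of a protein-coding gene. Of 3341 peaks in that list, 1154 met this rule (34.5%, exact 95% interval 32.9 to 36.2%), and they are called start peaks below. The other 2187 peaks of the list lay elsewhere. The rule used position only, so signal, replicate support, sequence and the number of starts nearby are separate measures.

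The data come from 1 group with 2 biological replicates, so no conditions were compared and no test over samples was possible. Both replicates are whole L4 larvae, males and females pooled, of strain OP217, whose labelled genotype is unc-119(ed3) III; ddIs172. The integrated transgene ddIs172 makes ALY-2 with GFP-FLAG at its C-terminus, and the animals came from 1 transgenic line. Neither the promoter nor the copy number of the transgene is given in the labels, the untagged aly-2 gene may also be present, and whole animals mix all tissues. The labels leave unsaid whether the replicates were separate cultures, and their spread may be technical in part.

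ALY-2 belongs to the Aly/REF family, RNA-binding adaptors that join the TREX complex to nascent messenger RNA and hand it to the export receptor. Such proteins are brought to genes by transcription and processing rather than by a DNA-binding domain of their own. In C. elegans many messenger RNAs receive a spliced leader in trans, which removes the first stretch of the transcript. An annotated start can therefore be a trans-splice site that lies downstream of the true promoter. Genes in this compact genome are often placed head to head, so that a pair of starts pointing away from each other shares 1 upstream region.

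Sequences at some of the strongest start peaks show what upstream DNA around a summit looks like. Summits of several other strong start peaks lay in exons of protein-coding genes, so the set does not stand for all of them. The set below holds 6 of the strongest, chosen because no exon of a protein-coding gene lies in view, and each sequence is on the strand of the gene it names. It reaches 100 bp to each side of the summit, and stops at the start for tasp-1. Capitals mark the words GAGAGA or CCGCCC, or their reverse complements, and in each of these sequences the first 100 bases come before the summit base. Bases are from the RefSeq genome of assembly WBcel235, the assembly named ce11 in the peak lists.
rpl-3, chrIII:3867476-3867676, plus strand: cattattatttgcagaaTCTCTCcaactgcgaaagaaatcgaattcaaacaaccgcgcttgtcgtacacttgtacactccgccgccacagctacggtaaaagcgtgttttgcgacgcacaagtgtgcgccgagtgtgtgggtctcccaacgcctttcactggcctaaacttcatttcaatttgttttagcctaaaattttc
rpl-35, chrIII:7854608-7854808, plus strand: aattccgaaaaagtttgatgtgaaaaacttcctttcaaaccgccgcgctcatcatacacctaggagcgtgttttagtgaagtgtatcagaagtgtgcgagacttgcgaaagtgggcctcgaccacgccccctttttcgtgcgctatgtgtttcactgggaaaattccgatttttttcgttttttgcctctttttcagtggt
tasp-1, chrIII:10759154-10759306, plus strand: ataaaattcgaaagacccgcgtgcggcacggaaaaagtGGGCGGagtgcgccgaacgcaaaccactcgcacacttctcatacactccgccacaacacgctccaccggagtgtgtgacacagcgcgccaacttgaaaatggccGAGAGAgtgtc
tbc-6, chrII:6847913-6848113, plus strand: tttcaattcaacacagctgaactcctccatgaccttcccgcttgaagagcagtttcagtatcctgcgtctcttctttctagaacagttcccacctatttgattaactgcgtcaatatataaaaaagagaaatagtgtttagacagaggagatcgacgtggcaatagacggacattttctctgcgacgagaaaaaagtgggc
Y75B12B.11, chrV:15190945-15191145, plus strand: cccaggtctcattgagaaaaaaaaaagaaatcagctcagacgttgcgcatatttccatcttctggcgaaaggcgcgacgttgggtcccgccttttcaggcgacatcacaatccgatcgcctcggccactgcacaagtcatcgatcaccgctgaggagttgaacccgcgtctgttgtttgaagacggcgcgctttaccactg
cdc-48.1, chrII:10563454-10563654, minus strand: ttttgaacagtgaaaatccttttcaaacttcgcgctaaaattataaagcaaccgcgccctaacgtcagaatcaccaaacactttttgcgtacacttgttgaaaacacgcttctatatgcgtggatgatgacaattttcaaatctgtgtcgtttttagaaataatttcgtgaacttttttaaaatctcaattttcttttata

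The next set holds the whole DNA between head-to-head starts at most 300 bp apart, at 2 strong start peaks. It is shown because a single short stretch there lies upstream of both genes. Both are on the plus strand, so the gene named first starts to the left and is read leftwards, and the gene named second starts to the right. Neither holds a marked word. The summit at clpp-1 and mdt-22 lies in an annotated intron of a protein-coding gene.
ears-2 and uncp-18, chrIV:390469-390559: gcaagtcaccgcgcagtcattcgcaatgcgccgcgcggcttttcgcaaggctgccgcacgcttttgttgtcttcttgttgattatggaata
clpp-1 and mdt-22, chrII:10301081-10301215: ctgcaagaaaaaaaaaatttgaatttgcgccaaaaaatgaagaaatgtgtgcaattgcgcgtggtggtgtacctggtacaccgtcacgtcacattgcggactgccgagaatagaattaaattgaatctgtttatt

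Start peaks made up a larger share of the list than the start windows made up of the genome. The windows of 29784 annotated starts of 19973 protein-coding genes covered 26.2% of the genome, against 34.5% of the peaks. The same comparison in each replicate gave a smaller and a larger value. Among the 3341 strongest peaks of replicate 1, 30.3% had a summit at a start (28.7 to 31.8%), and among as many of replicate 2 the share was 36.6% (35.0 to 38.3%). All 17453 peaks of replicate 1 gave 28.8%, and all 29384 peaks of replicate 2 gave 30.7%. Each of these intervals lay above 26.2%, and the intervals of the replicates' strongest peaks did not overlap each other.

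By the authors' deposited signal the start peaks resembled the rest of the list. The sources used here do not state what the signal measures or its scale, so it was compared only within a list. The median was 19.7 in start peaks (quartiles 17.9 and 22.9) and 19.3 in other peaks (17.7 and 22.8). In replicate 1 the medians were 12.7 in start peaks and 12.7 in other peaks, and in replicate 2 they were 11.2 and 11.1. The quartile ranges overlapped almost completely in every list. The authors' stricter list is the one past their threshold on the irreproducible discovery rate (IDR). Its 193 peaks are exactly the 193 strongest of the combined list by signal, so passing IDR here restates a high combined signal and is no separate sign of replicate support. Of the 69 start peaks in it, 65 overlapped a peak in both replicate lists. The stricter list held 5.78% of all combined peaks. Of start peaks 69 were in it (5.98%, 4.68 to 7.51%), and of other peaks 124 (5.67%, 4.74 to 6.72%). Both shares are near the background. At the upstream edge of the rule, 72 peaks in the last 100 bp inside it had a median signal of 19.05 and 56 in the first 100 bp outside had 18.7. At the downstream edge, 86 peaks in the last 100 bp inside had 19.2 and 44 in the first 100 bp outside had 18.5.

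Summits gathered within about 200 bp upstream of the start. Distance was measured to the nearest start whose window held the summit, so a nearer start could be passed over. The gldi-8 summit, for example, was counted as 596 bp upstream, although it lay 449 bp downstream of another start of gldi-8. The median signed distance so measured was −231 bp in start peaks (quartiles −565 and −41.5), where minus means upstream. It was −341 bp over all bases of the windows. Over 100 to 200 bp upstream lay 157 summits, 1.51 times the share of window bases there (interval 1.30 to 1.75). From 1 to 100 bp upstream lay 165, a ratio of 1.45 (1.25 to 1.67). Summits over 500 to 1000 bp upstream were fewer than their share of bases, with 328 and a ratio of 0.762 (0.693 to 0.835). From 0 to 100 bp downstream the ratio was 1.10 (0.924 to 1.29), and over 100 to 200 bp downstream it was 0.796 (0.641 to 0.974).

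The upstream excess was larger in replicate 2. In its strongest peaks the ratio was 1.67 (1.45 to 1.91) over 100 to 200 bp upstream and 1.46 (1.26 to 1.67) at 1 to 100 bp upstream. In the strongest peaks of replicate 1 these ratios were 1.12 (0.923 to 1.35) and 1.08 (0.897 to 1.29), and both intervals include the share of window bases. Over 100 to 200 bp downstream the replicates differed in direction, with 1.12 (0.925 to 1.34) in replicate 1 and 0.716 (0.573 to 0.882) in replicate 2. GC content around these summits also differed between the replicates. It averaged 38.0% ± 6.94 in replicate 1 and 40.3% ± 7.24 in replicate 2 (SD over 1011 and 1223 peaks, 100 bp on each side). The part of GC content in the distance pattern was not tested.

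**Figure D1:**
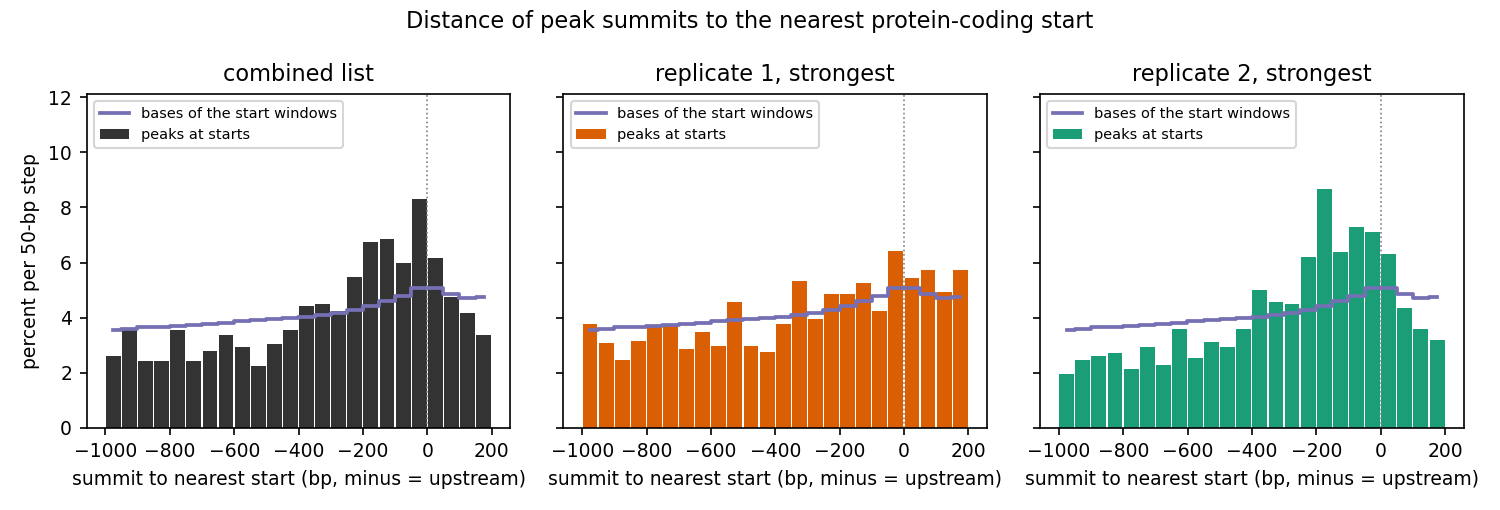
Start peaks (bars) and bases of the start windows (line), in percent per 50-bp step of distance to the nearest protein-coding start. Only starts whose window holds the summit or base count. Panels show the combined list and the strongest 3341 peaks of each replicate. Bars rise above the line just upstream of the start in the combined list and in replicate 2, where the step −200 to −151 bp holds 8.67% of peaks against 4.41% of bases, and stay closer to it in replicate 1, where that step holds 4.85%.

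Signal did not follow distance. Across the 1154 start peaks, which share the same pair of libraries, the correlation of signal with distance from the start was −0.0262 by Pearson's r and 0.0247 by Spearman's rho. Median signal ran between 19.2 and 20.1 over the 6 distance steps. The share past IDR was 5.49%, 7.56%, 7.01%, 7.27% and 4.72% from the farthest upstream step to the first 100 bp downstream. None of 86 start peaks over 100 to 200 bp downstream passed IDR, with an exact interval up to 4.20%. The highest signal in that last step was 28.8, while the highest in the other steps was 48.7 or more.

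The authors' list past IDR held 83 genes with a start peak, or 0.416% of all protein-coding genes. The 5 of its start peaks with summits nearest a start lay at aex-5, rpl-12, Y39B6A.43, unc-44 and T22D1.8. The aex-5 gene, for a proprotein convertase needed in the defecation cycle, had its summit 9 bp downstream of the start, with a signal of 51.6. It overlapped a peak of replicate 2 (signal 41.6, rank 14) and none of replicate 1. The unc-44 gene, for the worm ankyrin, had its summit 23 bp downstream of a start, with a signal of 41.5 and ranks of 137 in replicate 1 and 358 in replicate 2. Summits therefore lay at the start itself with replicate support that ranged from a single list to high ranks in both.

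Peaks with 1 start were the common class. In 932 of 1154 start peaks (80.8%, 78.4 to 83.0%) the windows of just 1 gene held the summit, against 89.7% of window bases. The strongest of these, at rpl-3, which codes for a protein of the large ribosomal subunit at its catalytic centre, ranked 3 in the whole list. Its summit, in the first sequence shown, lay 278 bp upstream of the start. Its signal was 91.3 in the combined list, 33.2 in replicate 1 and 52.8 in replicate 2, and its rank was 6 in both replicate lists. No other start peak ranked as high in both replicates.

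Other strong peaks with 1 start lay at genes of varied roles, and 12 of the 20 strongest had a better rank in replicate 2. Ranks are within lists of 17453 peaks for replicate 1 and 29384 for replicate 2. At rpl-35, another large-subunit protein, the signal was 65.8 with the summit 426 bp upstream, and the ranks were 128 in replicate 1 and 9 in replicate 2. At kel-3 it was 65.5 at 123 bp upstream, with ranks of 592 and 5. At tbc-6, named for the TBC domain of Rab GTPase-activating proteins, it was 63.1 at 111 bp upstream, with ranks of 200 and 13. The cdc-48.1 gene, for the AAA ATPase that extracts ubiquitinated proteins, had 52.9 at 147 bp upstream, with ranks of 72 and 24. Of the remaining genes, K12H4.5 (48.7), F54D5.7 (48.1), dpf-3 (47.6), a dipeptidyl peptidase family gene, and Y49A3A.3 (46.9) came next by signal. The K12H4.5 peak ranked 9504 in replicate 1 and 16 in replicate 2. Y49A3A.3 ranked 17 in replicate 1 and 37 in replicate 2, the next best after rpl-3 by the worse of the 2 ranks. The prmt-5 gene, for an arginine methyltransferase, had a signal of 43.3 with ranks of 87 and 50. At algn-8 (43.1), ufbp-1 (42.4), W01D2.3 (42.2), gldi-8 (41.7), sre-23 (41.7), pcyt-2.1 (41.6) and rpi-2 (41.4) signals lay close together. The kel-3, F54D5.7, dpf-3, Y49A3A.3, algn-8, ufbp-1 and rpi-2 summits lay in an annotated 3' UTR. The prmt-5 summit lay in a coding exon and the gldi-8 summit in a 5' UTR. The ranks of the ufbp-1 peak were 4175 in replicate 1 and 19 in replicate 2, and those of the algn-8 peak 47 and 420, so the replicates placed these genes very differently.

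Start peaks with 2 divergent starts were more frequent in the combined list than their share of window bases. Such a peak lay in the windows of exactly 2 genes whose starts point away from each other. There were 184 of them (15.9% of start peaks, 13.9 to 18.2%), while 8.48% of window bases lay in such places. The share was 15.9% past IDR (11 of 69, 8.24 to 26.7%), 10.4% in the strongest peaks of replicate 1 (8.57 to 12.4%) and 18.1% in those of replicate 2 (16.0 to 20.3%). All 4 shares lay above the window share, but the interval past IDR reached below it and that of replicate 1 ended just above it. The other classes were small, with 22 start peaks at 2 starts on the same strand, 1 at overlapping starts on opposite strands and 15 with 3 or more genes.

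**Figure D2:**
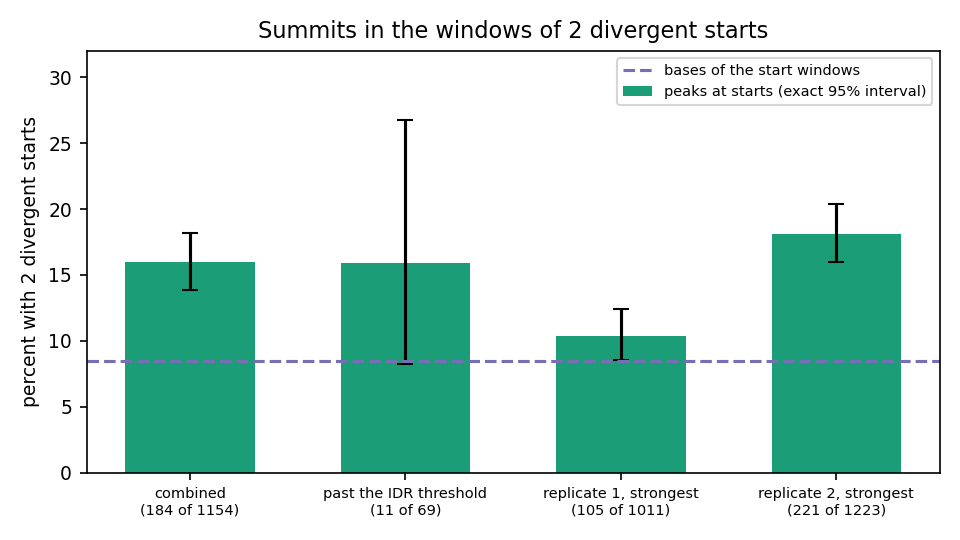
Percent of start peaks whose summit lies in the windows of 2 divergent starts (bars, exact 95% intervals) in each list, with the share of window bases (dashed line, 8.48%). The share was 15.9% in the combined list and past IDR, 10.4% in replicate 1 and 18.1% in replicate 2.

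Divergent peaks were no stronger than peaks with 1 start beyond the difference between replicates. Median signal was 20.3 with 2 divergent starts (quartiles 18.1 and 23.7) and 19.6 with 1 start (17.8 and 22.7). In replicate 1 the medians were 12.5 with 2 divergent starts and 12.7 with 1 start, and in replicate 2 they were 11.4 and 11.1, so the direction differed. The share past IDR was 5.98% with 2 divergent starts (3.02 to 10.4%) and 5.79% with 1 start (4.38 to 7.49%). GC content around the summit was 41.1% ± 6.84 with 2 divergent starts and 39.5% ± 6.93 with 1 start (SD over peaks).

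**Figure D3:**
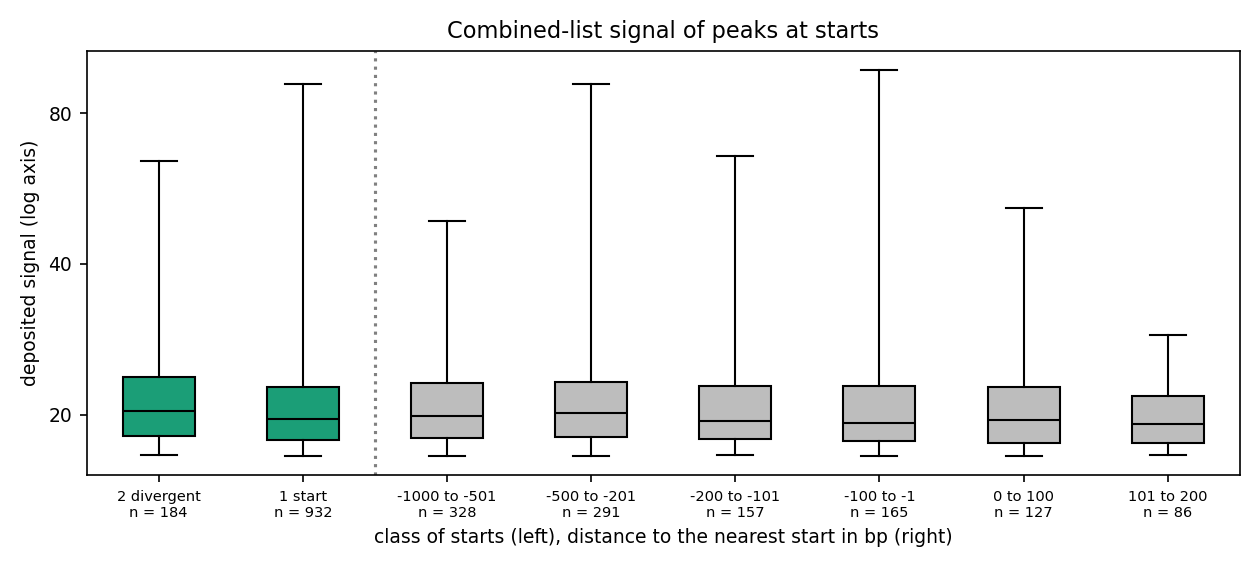
Deposited signal of start peaks in the combined list by class of starts (left pair) and by distance to the nearest start (right 6), on a log axis. Distance is to the nearest start whose window holds the summit. Boxes span the quartiles with the median, and whiskers reach the lowest and highest peak. Medians lie between 19.2 and 20.3 in all 8 groups.

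Divergent summits mostly sat between the starts, as do most bases of such windows. The gap between the starts had a median of 555 bp (quartiles 360.5 and 799) and ranged from 11 to 1830 bp. In 144 of 184 (78.3%, 71.6 to 84.0%) the summit lay between them, against 68.8% of the window bases with 2 divergent starts. These summits were a median of 159.5 bp from the nearer start and 420.5 bp from the farther. In the other 40 it lay inside a transcript of the pair. Median signal was 20.5 in the 32 peaks with gaps up to 300 bp, 19.9 in the 129 with gaps over 300 up to 1000 bp and 23.2 in the 23 with wider gaps. The quartile ranges of these 3 sets overlapped.

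The strongest divergent peak, at tasp-1 and K01G5.10, had a signal of 64.2. Its summit was 53 bp upstream of tasp-1, named for the protease taspase, and 732 bp upstream of K01G5.10. It ranked 134 in replicate 1 and 11 in replicate 2. At chst-1 and C41C4.9 the signal was 44.7, and the summit lay 310 and 364 bp upstream of the pair but only 11 bp from the start of a snoRNA gene between them. At rpl-12 and lin-54 it was 41.8, with the summit 18 bp upstream of rpl-12, a large-subunit ribosomal gene, and 375 bp upstream of lin-54, which codes for the DNA-binding subunit of the DREAM repressor complex. At ears-2, for a mitochondrial glutamyl-tRNA synthetase, and uncp-18 the starts are so close that the summit was 39 and 53 bp upstream of them. That peak had a signal of 37.7 and ranks of 42 in replicate 1 and 585 in replicate 2. The 4 strongest divergent peaks thus ranged from midway between the starts to close beside 1 of them.

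Further divergent peaks paired genes of unlike roles. The pair vps-51, of a Golgi tethering complex, and lin-35, the worm retinoblastoma gene, shared a summit 195 and 223 bp upstream with a signal of 37.5. The pair pqn-71 and rocf-1 had 37.3, and the pair lev-9 and mom-1 had 37.2. The lev-9 gene acts in clustering of acetylcholine receptors, and mom-1 in secretion of Wnt ligands. In the last pair a tRNA gene began 56 bp from the summit. The pairs iff-2 and F54C9.14 (33.9), icd-1 and vps-32.1 (33.0), and hsr-9 and rps-19 (32.9) overlapped a peak of replicate 2 and none of replicate 1. At rpl-20 and Y17G9B.5 the signal was 32.7. Of the 12 strongest pairs, 9 had a better rank in replicate 2.

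The few peaks of the other classes included the strongest of all, and they were chosen for mention after their values were seen. At C47E8.11 the summit lay 58 bp upstream and the signal was 97.5, with ranks of 53 in replicate 1 and 1 in replicate 2. The start of gasr-8, on the same strand, lies 552 bp from the summit. T22D1.8 and T22D1.17 overlap on opposite strands and held a peak of 41.6, which ranked 30 in replicate 1 and 1517 in replicate 2. At lsm-6, whose product binds the U6 snRNA, the signal was 36.3, and at pqn-51 it was 34.1.

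Replicate support was similar in start peaks and in other peaks. The combined list was made from the reads of both replicates, so part of this overlap was fixed in advance. Over all combined peaks, 82.3% overlapped a peak of replicate 1 by at least 1 bp and 89.6% a peak of replicate 2. For start peaks the shares were 82.3% (80.0 to 84.5%) and 91.5% (89.7 to 93.1%), and for other peaks 82.2% and 88.5%. Among the strongest 3341 peaks of both replicates, 18.1% of combined peaks had a match in each. The share was 17.3% of start peaks (200, 15.2 to 19.6%) and 18.6% of other peaks (17 to 20.3%). These shares lie near the background.

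Support split by replicate at divergent starts and in 1 of the upstream distance steps. Of divergent peaks 75.0% overlapped a peak of replicate 1 (68.1 to 81.1%), against 83.8% of peaks with 1 start (81.3 to 86.1%). In replicate 2 the shares were 96.7% for 2 divergent starts (93.0 to 98.8%) and 90.2% for 1 start (88.1 to 92.1%). Over 100 to 200 bp upstream 70.7% overlapped replicate 1 (62.9 to 77.7%) and 96.8% overlapped replicate 2 (92.7 to 99.0%). From 1 to 100 bp upstream, next to the start, the shares were 81.8% in replicate 1 and 90.9% in replicate 2, close to those of all start peaks. Of all start peaks, 203 had a match only in the list of replicate 2 and 97 only in that of replicate 1, and 1 had none. The replicate 2 list was longer, with 29384 peaks against 17453, and its part in this split was not tested.

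Within the 853 start peaks found in both lists, a high signal in one replicate went little with a high signal in the other. Pearson's r was 0.209 and Spearman's rho was −0.0368 across peaks, and in other peaks (n = 1554) they were 0.293 and 0.0297. These are descriptions across peaks, which share their libraries and were all selected by the combined reads. Ranks under 100 in both replicates were held by 10 start peaks. They lay at C47E8.11 (2 peaks), din-1 (2 peaks), rpl-3, cdc-48.1, dpf-3, Y49A3A.3, prmt-5 and gldi-8. The din-1 gene, which falls outside the rule for named genes, was included after its values were seen, and its 2 peaks overlap the same replicate peaks.

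**Figure D4:**
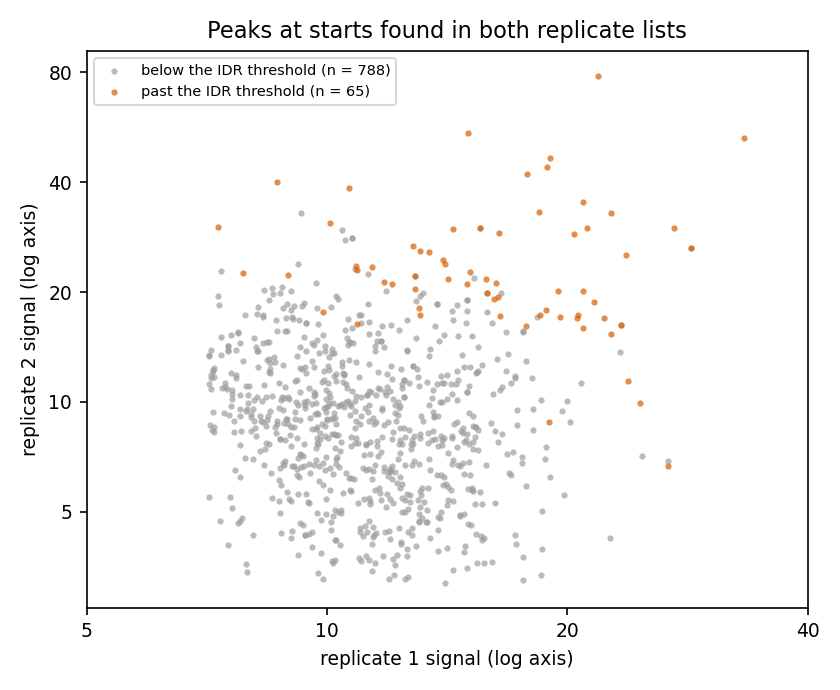
Signal of the 853 start peaks found in both replicate lists, replicate 1 against replicate 2, on log axes, with the 65 past IDR in orange. Points past IDR lie toward high signal in at least 1 replicate, and the rest form a cloud without a visible slope (Spearman's rho −0.0368 over all).

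Genes with a start peak numbered 1293 of 19973, which is 6.47% of protein-coding genes. Of these, 80 genes had 2 start peaks and 9 had 3 or more. A peak shared by 2 genes counts for both, and 51 start peaks overlapped another combined peak, so genes are not independent. The median signal of the best peak was 19.9 over all genes with one. Several housekeeping lists had shares above 6.47%. Of 82 ribosomal protein genes 36 had a start peak (43.9%, 33.0 to 55.3%), of which 6 passed IDR. These 36 genes held 38 peaks, and the median of their best signals was 21.97. The strongest were rpl-3, rpl-35, rpl-12 (41.8) and rps-16 (33.7, summit 49 bp upstream). In the strongest peaks of replicate 1 there were 18 such genes and in those of replicate 2 there were 44.

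Translation factors came next, with 15 of 41 genes (36.6%, 22.1 to 53.1%), of which 2 passed IDR. The strongest, eif-2Bgamma (37.6), codes for a subunit of the exchange factor for eIF2, and its summit lay 776 bp upstream. That peak ranked 16237 in replicate 1 and 36 in replicate 2. The iff-2 gene, for the elongation factor eIF5A, had 33.9 at 48 bp upstream. The erfa-3 (25.4) and eif-1.A (22.8) genes followed. A noncoding RNA gene starts 32 bp from the eif-2Bgamma summit. In the strongest peaks of replicate 1 there were 4 translation factor genes (9.76%, 2.72 to 23.1%) and in those of replicate 2 there were 10 (24.4%, 12.4 to 40.3%). Respiratory chain genes gave 9 of 37 (24.3%, 11.8 to 41.2%), with cox-5B at 34.9, cox-6B at 28.2, cox-6A at 25.0 and atp-5 at 22.3. An snRNA gene starts 26 bp from the cox-6A summit. The cox-6B and atp-5 summits lay nearer to another protein-coding start. Replicate 1 gave 8 of these genes and replicate 2 gave 11. Proteasome genes and cdc-48 gave 8 of 36 (22.2%, 10.1 to 39.2%), with pas-5 at 31.7 and rpn-3 at 25.7 behind cdc-48.1. The pas-5 summit was 990 bp upstream and nearer to a snoRNA gene. The rpn-3 summit was 698 bp upstream, in a coding exon, and 254 bp from the start of the chaperone gene hsp-110. Replicate 1 gave 4 of these genes (11.1%, 3.11 to 26.1%) and replicate 2 gave 11 (30.6%, 16.3 to 48.1%). In the combined list every interval of these 4 lists lay above 6.47%. In replicate 1, where the strongest peaks reached 5.53% of all genes, the intervals for translation factors and proteasome genes included that share. In replicate 2 all 4 lay above its share of 6.91%.

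Germline genes gave 9 of 44 (20.5%, 9.80 to 35.3%), with syp-4, a synaptonemal complex protein, at 29.0 and him-14, a meiotic MutS relative, at 22.2. Chaperone genes gave 11 of 59 (18.6%, 9.69 to 30.9%), with hsp-1 at 28.7, hsp-60 at 24.8 and hsp-3 at 23.3. No member of either list passed IDR. In replicate 1 the strongest peaks reached 3 germline genes (6.82%, 1.43 to 18.7%) and 3 chaperone genes (5.08%, 1.06 to 14.1%), near that replicate's share over all genes. In replicate 2 they reached 9 and 11. The syp-4 summit is 11 bp from the start of a noncoding RNA gene. The hsp-1 summit is 139 bp from another such start and 407 bp from that of hsp-1. The hsp-1 peak ranked 16075 in replicate 1 and 312 in replicate 2. The hsp-60 summit lay in an intron, 537 bp upstream of hsp-60. The hsp-3 summit lay in a coding exon, 889 bp upstream of the counted start and 425 bp downstream of another hsp-3 start. Splicing genes gave 5 of 31 (16.1%, 5.45 to 33.7%), with snr-4, a core Sm protein, at 29.7 and rsp-4, an SR protein, at 21.8. The snr-4 summit is 248 bp from an snRNA start and 643 bp from that of snr-4. Histone genes gave 9 of 80 (11.3%, 5.28 to 20.3%), led by his-42 at 33.3, with a noncoding RNA start 17 bp from the summit, and his-58 at 29.9. The his-58 summit is 249 bp from a piRNA start and 929 bp from that of his-58. Replicate 1 gave 2 splicing and 5 histone genes, and replicate 2 gave 7 and 13. Histone genes are near-identical copies in clusters, so a read could be assigned to the wrong copy. In the combined list the intervals for splicing and histone genes included 6.47%.

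Chemoreceptor, collagen and neuropeptide genes had shares under the background in the combined list, and other tissue lists were not set apart from it. Chemoreceptor genes, active in sensory neurons, gave 21 of 1364 (1.54%, 0.955 to 2.34%), with sre-23 at 41.7 and srh-171 at 23.3 among the strongest. The sre-23 summit was nearer to a snoRNA start, 65 bp away, than to its own gene at 624 bp. Cuticle collagens gave 4 of 175 (2.29%, 0.626 to 5.75%), with col-63 at 24.8, its summit 55 bp from a noncoding RNA start, dpy-10 at 16.9 and the others between 16.7 and 17.2. The dpy-10 summit lay 41 bp from another such start and 276 bp from that of dpy-10. Neuropeptides gave 1 of 140 (0.714%, 0.0181 to 3.92%), nlp-76 at 21. Nuclear hormone receptors gave 12 of 269 (4.46%, 2.33 to 7.66%), homeobox genes 2 of 63 (3.17%, 0.387 to 11%) and intestinal genes 2 of 36 (5.56%, 0.680 to 18.7%). In the combined list no start peak was found at 34 muscle genes (exact interval up to 10.3%) or at 31 major sperm protein genes (up to 11.2%). The strongest peaks of replicate 1 reached 1 muscle gene and those of replicate 2 reached 2. In the combined list the intervals for chemoreceptors, collagens and neuropeptides ended below 6.47%. Those for nuclear hormone receptors, homeobox, intestinal, muscle and major sperm protein genes included it. In replicate 1 the strongest peaks reached 38 chemoreceptor genes (2.79%, 1.979 to 3.804%) and in replicate 2 they reached 13 (0.953%, 0.508 to 1.62%), both under those replicates' shares over all genes. They reached 6 collagen genes in replicate 1 (3.43%, 1.27 to 7.31%) and 2 in replicate 2 (1.14%, 0.139 to 4.07%). They reached 4 neuropeptide genes in each (2.86%, 0.784 to 7.15%). The intervals for collagens in replicate 1 and for neuropeptides in both replicates included those shares. Nuclear hormone receptor genes numbered 12 in replicate 1 and 4 in replicate 2. Intestinal genes numbered 2 of 36 in each replicate (5.56%), against 5.53% of all genes in replicate 1 and 6.91% in replicate 2.

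**Figure D5:**
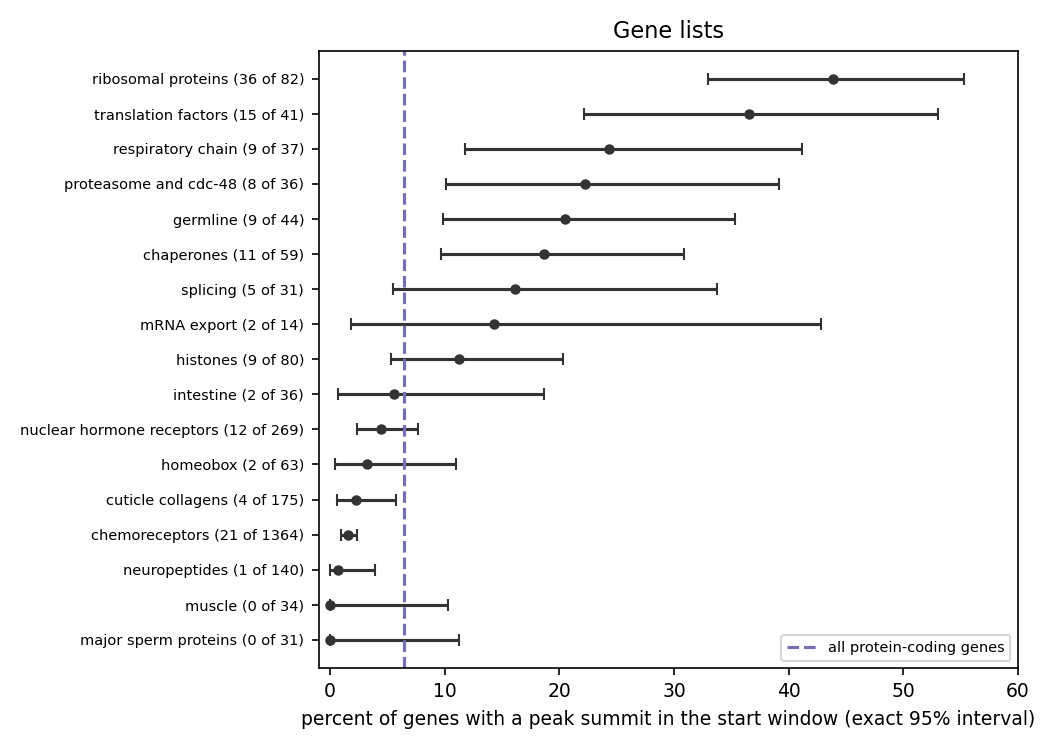
Percent of genes in each list with a start peak (points, exact 95% intervals), with the share of all protein-coding genes (dashed line, 6.47%). Ribosomal protein genes (43.9%) and translation factors (36.6%) stand at the top, and chemoreceptors (1.54%) and neuropeptides lie left of the line.

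The mRNA export list, in which ALY-2 itself belongs, gave 2 of 14 genes (14.3%, 1.78 to 42.8%). They were hel-1, for the DEAD-box helicase of the TREX complex, with a signal of 21 at 83 bp downstream, and aly-2. The aly-2 peak had a signal of 17.2, above 15.2% of the combined list, with its summit 116 bp downstream of the start and 715 bp upstream of rpb-12, which points the other way. In the aly-2 window the strongest peak was 9.64 in replicate 1 and 12.4 in replicate 2. Transgene copies could add reads at aly-2 without binding, and their part in this peak was not tested. A peak at aly-3 was listed only in replicate 2 (10.7, 238 bp upstream). None was listed at aly-1, or at unc-119, the gene mutated in this strain's background and commonly used as a rescue marker.

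In 141 start peaks a noncoding RNA gene began nearer to the summit than the protein-coding start. In the combined list these were stronger, with a median signal of 21.2 (quartiles 18.4 and 27.7). It was 19.6 (17.8 and 22.6) in the 1009 with a protein-coding start nearest. The share past IDR, which restates signal, was 18 of the 141 (12.8%, 7.74 to 19.4%), against 51 of the 1009 (5.05%, 3.79 to 6.59%), with 5.78% over all combined peaks. Of the 141, 28.4% matched the strongest peaks of both replicates (21.1 to 36.6%), against 15.9% of the 1009 (13.7 to 18.3%). This contrast came mainly from replicate 2, whose strongest peaks matched 100 of the 141 and 511 of the 1009. Those of replicate 1 matched 64 of the 141 and 444 of the 1009. Median replicate 2 signal was 12.9 for the 141 against 9.72 for the 1009. Replicate 1 medians lay closer together, at 11.8 for the 141 against 11.4 for the 1009. The nearest genes were of the ncRNA class in 86 start peaks, tRNA in 20, snoRNA in 18, piRNA in 10 and snRNA in 4.

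Peaks nearest a snoRNA start had the highest median among these classes. SnoRNAs guide chemical modification of ribosomal RNA. The 18 start peaks nearest a snoRNA start had a median signal of 29.3 (quartiles 21.8 and 36.3), and 6 of them passed IDR (33.3%, 13.3 to 59.0%). All 18 overlapped a peak of replicate 2 and 17 a peak of replicate 1, and 10 matched the strongest of both. The strongest peak of the set, with a signal of 54.7, was assigned to Y75B12B.11, whose start lies 251 bp from the summit. The start of the snoRNA gene Y75B12B.12 is 48 bp away, so the sequence shown for this place runs across the start of the snoRNA gene. The sre-23, pcyt-2.1 and chst-1 peaks likewise had a snoRNA start nearest. For tRNA neighbours the median was 20.7, and 1 of 20 passed IDR.

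A start window may also fall inside a neighbouring gene. Of start peaks 472 had a summit outside protein-coding genes (40.9%, 38.0 to 43.8%), against 45.0% of window bases. The rule picks windows upstream of genes, so this share is set beside the bases of those windows and not beside other peaks. Another 246 lay in a coding exon (21.3%), against 21.7% of window bases, and 191 in an intron (16.6%), against 22.7%. In a 3' UTR lay 117 (10.1%), against 3.71% of window bases. In a 5' UTR lay 65 (5.63%), against 4.38%, and in an exon of a noncoding gene 63 (5.46%), against 2.54%. Passing IDR, which restates a high combined signal, held for 5.78% of all combined peaks. Near that share were the summits outside protein-coding genes, with 30 of the 472 (6.36%). In 3' UTRs 16 of the 117 passed (13.7%) and in noncoding exons 10 of the 63 (15.9%). In coding exons 6 of the 246 passed (2.44%) and in introns 3 of the 191 (1.57%). These counts are small and no intervals were computed for them. Of the 246 in coding exons, 98 were in a gene other than the one whose start was near. So part of the start peaks overlies the body or the end of an adjoining gene.

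Chromosome X held fewer start peaks than its share of windows. It had 113 (9.79%, 8.14 to 11.7%), against 14.7% of window bases. Of other peaks 14.3% lay on X, but these peaks lie outside the windows. The X share of bases outside the windows was not computed, so a deficit particular to start peaks is not shown. In the strongest peaks of replicate 1 the X share was 9.79% and in those of replicate 2 it was 11%. Chromosome V had 16.1% of start peaks (14 to 18.4%) and 24.1% of window bases. Chromosome III had 18.98% of start peaks (16.8 to 21.4%) and 12.8% of window bases. Other peaks were placed much the same on these chromosomes, with 15.5% on V and 19.3% on III. On X the median signal was 19.6 and 3.54% of start peaks passed IDR (0.973 to 8.82%), and on autosomes they were 19.7 and 6.24% (4.85 to 7.89%).

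Sequence around the summits was compared through short words within 100 bp on each side, on either strand. GAGAGA was present at 22.1% of start peaks (19.7 to 24.6%), 16.8% of other peaks, 13.2% of flanks 400 to 600 bp from the start-peak summits and 16.4% of promoters, taken as a window of the same length directly upstream of each gene's start. CCGCCC was present at 7.45% of start peaks (6.0 to 9.12%), 4.25% of other peaks, 3.64% of flanks and 6.01% of promoters. With 2 divergent starts the shares were 26.1% for GAGAGA and 11.4% for CCGCCC, and with 1 start they were 21.8% and 6.33%. TATAAA was present at 16.5% of start peaks, 18.8% of flanks and 30.5% of promoters. GAANNTTC, where N is any base, was at 13.3% of start peaks and 13.5% of flanks. CACGTG was at 3.55% of start peaks and 4.20% of flanks. TTTCAG, the end of many worm introns, was at 31.3% of start peaks and 39.5% of flanks. Matches are letters in a window and do not show a bound site.

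The differences for GAGAGA and CCGCCC were larger in replicate 2. In its strongest start peaks 25.0% held GAGAGA, against 13.5% of their flanks. In those of replicate 1 the shares were 15.1% and 13%. CCGCCC was at 7.44% of start peaks and 3.84% of flanks in replicate 2, and at 4.85% and 3.86% in replicate 1. Over all 2080 words of 6 bases, GAGAGA had the largest excess over flanks in the combined start peaks and in replicate 2, and ranked 94 in replicate 1. The words AAGAGA (24.8% of start peaks, 16.4% of flanks) and AGAGAG (17.2% and 9.62%) overlap with it and came next. The same 3 words led in the other peaks of the combined list, where GAGAGA ranked 3 with 16.8% of peaks and 12.2% of their flanks. CACACA was in 15.4% of start peaks and 8.45% of flanks, and it ranked 10 in replicate 1 and 4 in replicate 2. The word GCGCAC was at 8.67% of start peaks and 3.34% of flanks, with 3.38% of other peaks. It ranked 13 in start peaks but 850 in replicate 1 and 23 in replicate 2.

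Annotated starts near these summits were often preceded directly by AG, the last letters of a splice acceptor. The nearest start had AG before it in 489 of 1154 start peaks (42.4%, 39.5 to 45.3%), against 25.9% of window bases. In the strongest start peaks the share was 35.2% in replicate 1 (32.3 to 38.2%) and 41.9% in replicate 2 (39.2 to 44.8%). It was 49.0% (43.1 to 54.9%) of nearest starts with a summit over 200 to 500 bp upstream and 32.7% (25.6 to 40.5%) of those with a summit 1 to 100 bp upstream. AG alone does not show that a start is a trans-splice site.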

How the data were processed

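ALY-2 chromatin immunoprecipitation was measured in 2 replicates of 1 group. The authors deposited peak lists in the ce11 build: 1 permissive list per replicate, 1 from both replicates combined, and the list past the optimal IDR threshold, per the labels and the file descriptions. The deposited signal column ranks peaks. Its scale, the caller, the aligner and their versions were not given in the sources used here. The deposited −log10 column holds q-values. Depth is unknown, so exact (Clopper-Pearson) 95% intervals cover counting error over peaks only. The 4 ce10 lists were not used here.

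Summits were set against Ensembl release 115 and the RefSeq genome, both of the same assembly, and shares against every base of the start windows. A replicate alone was represented by its 3341 strongest peaks. No test was run, since there is 1 group. Scripts (Python 3.11.15, numpy 2.4.6, scipy 1.17.1, matplotlib 3.10.9) were tested on simulated starts and summits. Named genes are those of the 20 strongest peaks with 1 start, the 12 strongest with 2 divergent starts, the 4 strongest of each list, the 5 nearest a start past IDR, plus unc-119 with aly-1, aly-2 and aly-3. Genes of the other classes, clpp-1 and mdt-22 were chosen after their values were seen. A peak that the rule names is not reported here. The start peaks, lists and motifs were chosen with earlier results of these data known. Alternatives were other windows, starts, thresholds and each replicate alone.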

Additional observations from a re-analysis of the deposited data

How the results depend on the processing

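No paired analysis was possible because only 1 group exists. Of 54 recomputed values 18 stayed within the interval, the replicate spread or, for gene counts, a fixed fold range around the main value. Another 30 moved and 6 changed sign. With windows of 500 bp upstream to 100 bp downstream, start peaks were 22.5% of the list (windows 14.2% of the genome), 13.3% had divergent starts (5.06% of bases), median distance was −154 bp, genes were 838, and the median signal difference from other peaks was 0.30. With 200 bp on each side these were 16.0% (10.04%), 3.36% (1.23%), −29 bp, 544 and −0.14, and the divergent minus 1-start difference was 2.04. With 1 start per gene the share was 29.2% (21.5%) and the signal difference 0.62. Counting 1 bp of the interval gave 39.7%. Above the median signal the share was 36.7%, genes 717, and the 2 signal differences −0.24 (from other peaks) and 0.042 (divergent). In the IDR list genes were 83 and these differences −0.094 and −0.19. Leaving out 1 replicate gave shares of 30.3 to 36.6%, divergent shares of 10.4 to 18.1%, distances of −279 to −224 bp, 1105 to 1380 genes, signal differences of 0.052 to 0.11, divergent differences of −0.25 to 0.28, GC differences of −0.49 to −0.43 and correlations with distance of −0.012 to −0.00064. GC over 50 bp on each side differed by 0.27, against −0.27 over 100 bp. With summits within 100 bp, 70.1% matched replicate 1 and 76.9% replicate 2. The cause was not tested. Unknown depth limits all comparisons between replicates.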
